A study of Mus musculus with 18 samples.

Results

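Expression of 10 genes that mark the mesonephros, the gonad and the coelomic epithelium of the embryo (Wt1, Gata4, Nr5a1, Emx2, Osr1, Upk3b, Cdh16, Pax8, Lhx1 and Pax2) was followed through sorted cells of the mouse aorta-gonad-mesonephros (AGM) region. The genes were taken by symbol and are 10 of the 21881 symbols counted. A symbol was tested when it reached 0.796 counts per million-read library (CPM) in at least 3 libraries, a minimum that 16231 symbols and 9 of the 10 genes passed. Pax2 did not pass and is described by its counts.

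All cells came from embryos at embryonic day 11 of a C57BL6 strain that carries BRE-GFP, a green fluorescent transgene switched on by BMP signalling. Sorting on CD31 and Kit gave EC (CD31 positive, Kit negative, enriched for endothelial cells), HPSC (positive for both, enriched for hematopoietic progenitor and stem cells) and MC (negative for both, enriched for mesenchymal cells). Each population came from fresh AGM, from AGM explants kept in medium containing BMP and Hedgehog, and from explants also given cyclopamine, an inhibitor of Hedgehog signalling. Each was divided into BRE-GFP negative and positive cells, which gave 18 libraries with 1 library for each combination. The reporter reads a BMP response and does not mark a cell type, and the number of embryos behind a library is not given in the sources used here. MC is defined only by the absence of both surface proteins, so any cell without them can enter it. RNA-seq of sorted cells measures the sum over the cells of a library, so fewer cells of a type and less RNA per cell cannot be told apart.

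The libraries held 3041249 to 21972063 gene counts, and 10297 to 18816 symbols had at least 1 count. The 2 libraries of fewest counts were the cyclopamine BRE-GFP negative HPSC library and the fresh BRE-GFP positive MC library. Pecam1, which encodes CD31, ranged from 93.7 to 1683 CPM in EC, from 212 to 2682 CPM in HPSC and from 2.996 to 11.5 CPM in MC. Kit ranged from 450 to 1135 CPM in HPSC, from 42.6 to 219.9 CPM in EC and from 20.9 to 187 CPM in MC. The sorted populations also carried RNA of other cell types. Summed over 6 mesenchymal markers (Pdgfra, Pdgfrb, Col1a1, Col3a1, Lum and Dcn), the level ranged from 739 to 5175 CPM in EC, from 249.5 to 683 CPM in HPSC and from 1914 to 5678 CPM in MC. Summed over 5 germ cell markers (Dppa3, Dazl, Ddx4, Pou5f1 and Nanos3), it ranged from 252 to 750.5 CPM in the BRE-GFP negative HPSC libraries and from 0 to 108 CPM in the positive ones. Summed over 5 erythroid markers (Alas2, Epb42, Hba-x, Hbb-y and Klf1), it ranged from 494 to 27730 CPM in MC, from 1700 to 13360 CPM in HPSC and from 6.50 to 2938 CPM in EC. The sum of 5 macrophage markers ranged from 461 to 2957 CPM in EC, from 222 to 2510 CPM in HPSC and from 29.3 to 79.97 CPM in MC.

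The aorta of the midgestation embryo lies between the paired urogenital ridges, from which the AGM region takes its name. The ridge forms from intermediate mesoderm, whose nephric duct and mesonephric tubules depend on Pax2, Pax8, Lhx1 and Osr1. Its surface is a coelomic epithelium that expresses Wt1, Gata4, Emx2 and Nr5a1 and gives rise to the gonad, and the body cavity is lined by mesothelium, in which the membrane protein Upk3b is found. Cdh16, or Ksp-cadherin, is an adhesion protein of kidney and mesonephric tubule epithelium.

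Promoters of 5 of the 10 genes (Pax8, Upk3b, Lhx1, Pax2 and Emx2) were found in the RefSeq table, build GRCm38.p6. Wt1, Gata4, Nr5a1, Osr1 and Cdh16 had no entry. Because the libraries were divided by a BMP reporter, the 250 bases before each start were searched on both strands for GGCGCC and GTCTAGAC, letters bound by SMAD proteins that relay BMP signals, and for 4 other motifs. The 3 windows below are those of Upk3b, which was higher in MC than in HPSC, of Pax8, the tubule gene of highest level among the Pax genes here, and of the first of the 3 Pax2 starts, and capitals mark the motif found.
Upk3b: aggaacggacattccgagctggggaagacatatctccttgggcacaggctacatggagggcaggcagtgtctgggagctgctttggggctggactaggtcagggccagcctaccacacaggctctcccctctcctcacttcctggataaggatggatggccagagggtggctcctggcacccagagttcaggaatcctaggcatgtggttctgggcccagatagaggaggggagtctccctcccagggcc
Pax8: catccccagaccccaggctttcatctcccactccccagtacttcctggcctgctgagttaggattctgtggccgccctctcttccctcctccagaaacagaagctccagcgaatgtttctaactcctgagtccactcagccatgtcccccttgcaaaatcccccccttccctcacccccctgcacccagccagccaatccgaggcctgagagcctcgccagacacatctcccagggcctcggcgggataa
Pax2: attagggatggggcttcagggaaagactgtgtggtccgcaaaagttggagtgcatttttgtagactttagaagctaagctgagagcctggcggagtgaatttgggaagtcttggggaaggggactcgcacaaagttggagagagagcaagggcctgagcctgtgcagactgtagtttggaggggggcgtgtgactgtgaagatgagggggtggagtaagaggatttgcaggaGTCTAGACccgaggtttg

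The Upk3b window lies at chr5:136038246-136038495 on the plus strand, the Pax8 window at chr2:24475600-24475849 on the minus strand and the Pax2 window at chr19:44746351-44746600 on the plus strand. The Pax2 window holds GTCTAGAC from 18 to 11 bases before the start, a palindrome found in 0.167% of 32851 promoter windows. This RefSeq start lies upstream of the Pax2 coordinates given below, which come from another annotation (GENCODE). GGCGCC, found in 9.59% of all windows, was present in the Emx2 window 236 to 231 bases before the start and at 2 places before the third Pax2 start. No window of these genes held GACCACCCA (a GLI site, 0.225% of all windows), GCGGGGGCG (a WT1 and EGR site, 2.57%), AGATAA (to which Gata4 binds, 9.99%) or CAAGGTCA (an NR5A1 site, 1.33%). The motifs do not overlap each other in these windows, and a match of letters shows no binding.

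Wt1 had the highest mean level of the 10 genes per exon length in each population. Divided by exon length, the mean level in MC was 16.8 ± 6.94 CPM per kilobase for Wt1, 9.24 ± 2.63 for Osr1, 5.63 ± 3.39 for Cdh16 and 4.46 ± 1.92 for Upk3b (SD, n = 6 libraries). Gata4 followed at 2.57 ± 0.703, Emx2 at 1.58 ± 0.571, Pax8 at 1.23 ± 1.15 and Nr5a1 at 1.23 ± 0.747 CPM per kilobase in MC. Lhx1 and Pax2 closed the order at 0.164 ± 0.248 and 0.0398 ± 0.0342 CPM per kilobase. Cdh16 and Upk3b lay within 1 SD of each other, as did the neighbours from Emx2 to Nr5a1. In EC the order began with Wt1 (13.2 ± 12.3), Gata4 (6.35 ± 7.09) and Nr5a1 (2.95 ± 1.75 CPM per kilobase), and in HPSC no gene but Wt1 (2.93 ± 1.95) and Osr1 (1.72 ± 1.96) had a mean above 1 CPM per kilobase.

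**Figure D1:**
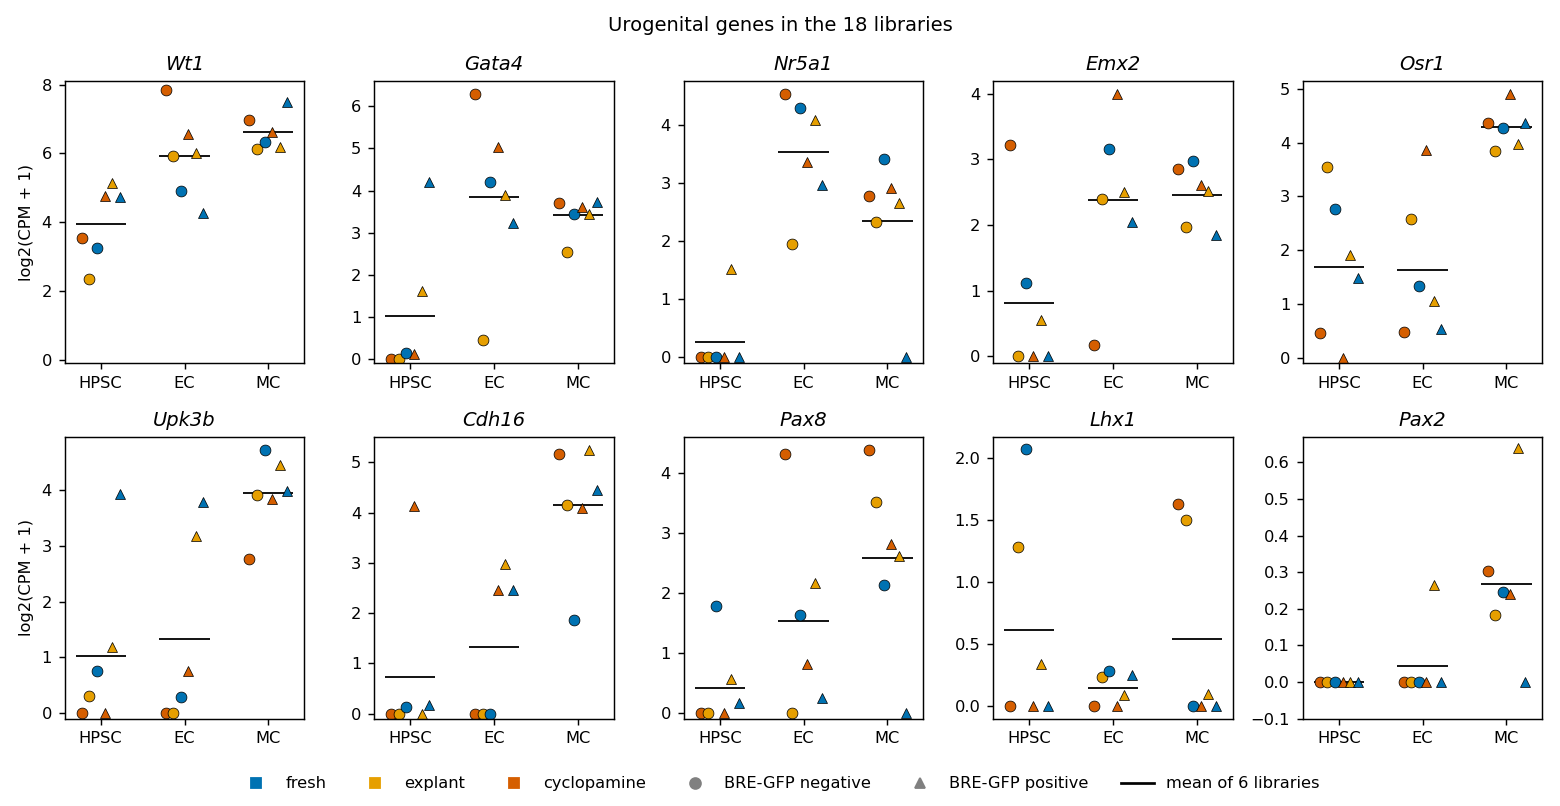
Levels of the 10 genes in the 18 libraries, as log2(CPM + 1), by sorted population; colours give the culture, shapes the BRE-GFP fraction and bars the mean of 6 libraries, and each panel has its own scale. The 6 MC libraries stand above all 6 HPSC libraries for Wt1 and Osr1, while the highest Pax2 value is 0.557 CPM.

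Among the gonad and coelomic epithelium factors, Wt1, a zinc finger regulator of the urogenital ridge (chr2:105126529-105173616 on GRCm38, plus strand), had counts in every library. In MC it stood at 79.9, 68.6 and 125 CPM in the fresh, explant and cyclopamine BRE-GFP negative libraries and at 181, 71.7 and 98.0 CPM in the positive ones. In EC the same order gave 28.9, 59.4 and 227 CPM in the negative and 18.2, 64.0 and 93.9 CPM in the positive libraries. In HPSC it gave 8.43, 4.13 and 10.6 CPM in the negative and 25.4, 34.6 and 25.9 CPM in the positive libraries. The ranges of MC and HPSC did not overlap, and the EC range spanned that of MC.

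Wt1 was higher in MC than in HPSC by 2.66 ± 0.569 on the log2 scale (SE, edgeR adjusted p = 0.00701), in 6 of 6 blocks (libraries matched for culture and BRE-GFP status). It remained called when any 1 of the 18 libraries was left out, with adjusted p up to 0.0315. The adjusted p was 0.0561 without the 2 libraries of fewest counts. The difference of MC from EC was 0.54 ± 0.550 (adjusted p = 0.817) and that of HPSC from EC was -2.12 ± 0.579 (adjusted p = 0.167).

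Gata4, a zinc finger factor needed to thicken the coelomic epithelium into a gonad (chr14:63198922-63271692, minus strand), was detected in 16 libraries. Its level ranged from 4.83 to 12.2 CPM in MC with a median of 10.6 and from 0.356 to 77.1 CPM in EC with a median of 15.6. In HPSC 2 libraries had more than 1 count, the fresh and explant BRE-GFP positive ones at 17.4 and 2.07 CPM. MC differed from HPSC by 4.04 ± 1.59 (adjusted p = 0.121) and HPSC from EC by -4.76 ± 1.68 (adjusted p = 0.324), so neither passed in edgeR.

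Nr5a1, the nuclear receptor SF-1 of the gonad and adrenal primordium (chr2:38692656-38714542, minus strand), was counted in all 6 EC libraries. They held 18.5, 2.84 and 21.97 CPM in the fresh, explant and cyclopamine negative cells and 6.79, 15.9 and 9.18 CPM in the positive cells. MC held 9.62, 4.01 and 5.83 CPM in the negative cells and 0, 5.29 and 6.56 CPM in the positive cells. In HPSC 5 libraries had 0 counts, and the explant BRE-GFP positive library had 28 counts or 1.87 CPM. A count of 0 allows up to 1.13 CPM in the shallowest HPSC library and up to 0.599 CPM in the fresh positive MC library (3 counts, counting error only).

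Every EC library stood above every HPSC library for Nr5a1. The difference of HPSC from EC was -7.27 ± 1.66 on the log2 scale and did not pass in edgeR (adjusted p = 0.083), while DESeq2 gave 1.24e-06 and limma-voom 0.00209. Nr5a1 was higher in MC than in HPSC by 5.91 ± 1.63 (edgeR adjusted p = 0.0302), in 5 of 6 blocks. That call held in 10 of the 18 fits with 1 library left out, and the adjusted p rose to 0.0877 without the cyclopamine BRE-GFP positive HPSC library. MC differed from EC by -1.36 ± 1.26 (adjusted p = 0.797).

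Emx2, a homeobox gene of the urogenital epithelium (chr19:59458372-59465357, plus strand), ranged from 2.60 to 6.84 CPM in MC with a median of 4.92 and from 0.130 to 14.9 CPM in EC with a median of 4.45. HPSC held 0 counts in 3 libraries and 8.30 CPM in the cyclopamine BRE-GFP negative library, whose value rests on 22 counts. MC differed from HPSC by 3.33 ± 1.64 (adjusted p = 0.218). Emx2os is annotated on the opposite strand over Emx2, and the strand setting of the counting is not given in the sources used here, so reads of the pair cannot be told apart.

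The EC library with the highest Wt1, Gata4 and Nr5a1 of all 18 was the same one, the cyclopamine BRE-GFP negative library, at 227, 77.1 and 21.97 CPM. It had 0 counts of Upk3b and Cdh16 and 1 count of Emx2. In this library 11006 symbols had at least 1 count. Its summed mesenchymal marker level was 3789 CPM, within the range of MC, and its summed germ cell marker level was 215 CPM against 0.599 to 9.18 CPM in MC. The explant BRE-GFP negative EC library had a germ cell sum of 222 CPM and a mesenchymal sum of 3125 CPM. There Wt1 was at 59.4, Gata4 at 0.356 and Nr5a1 at 2.84 CPM. The part of these cells in the levels of Wt1, Gata4 and Nr5a1 was not tested.

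Osr1, a zinc finger factor of the early intermediate mesoderm (chr12:9570116-9581500, plus strand), was high in MC in every culture. MC held 18.3, 13.4 and 19.6 CPM in the fresh, explant and cyclopamine negative libraries and 19.6, 14.8 and 28.9 CPM in the positive ones. HPSC ranged from 0 to 10.7 CPM with a median of 2.27, and EC from 0.390 to 13.6 CPM with a median of 1.304. The MC range lay above that of HPSC and met that of EC at the cyclopamine BRE-GFP positive EC library. MC differed from HPSC by 2.88 ± 1.19 (adjusted p = 0.138) and from EC by 3.46 ± 1.25 (adjusted p = 0.220), higher in 6 of 6 blocks in each comparison but not past the edgeR threshold.

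Upk3b, a uroplakin of mesothelial cells (chr5:136038496-136046487, plus strand), was counted in all 6 MC libraries. They held 25.5, 14.1 and 5.77 CPM in the fresh, explant and cyclopamine negative cells and 14.8, 20.9 and 13.4 CPM in the positive cells. The EC negative libraries held 0.219, 0 and 0 CPM and the positive ones 12.8, 8.07 and 0.678 CPM in the same order. HPSC held 0.678, 0.238 and 0 CPM in the negative and 14.2, 1.27 and 0 CPM in the positive cells. Outside MC, 4 libraries reached 1 CPM, and all 4 were BRE-GFP positive cells from fresh AGM or from explants without cyclopamine.

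Upk3b was higher in MC than in HPSC by 5.41 ± 1.42 (edgeR adjusted p = 0.0231), in 6 of 6 blocks. The call held in 11 of the 18 fits with 1 library left out, and the adjusted p rose to 0.0904 without the explant BRE-GFP negative MC library. The difference of MC from EC was 4.75 ± 1.39 (adjusted p = 0.099), in 6 of 6 blocks. It passed with DESeq2 (0.000118), with limma-voom (0.0426) and in edgeR without the 2 libraries of fewest counts (0.046).

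Cdh16, the tubule cadherin (chr8:104601911-104624396, minus strand), had 0 counts in all 3 EC negative libraries and 4.47, 6.93 and 4.52 CPM in the fresh, explant and cyclopamine EC positive libraries. MC held 2.65, 16.8 and 34.8 CPM in the negative and 20.8, 37.1 and 15.96 CPM in the positive cells. HPSC held at most 1 count in 5 libraries and 181 counts, or 16.5 CPM, in the cyclopamine BRE-GFP positive library. Cdh16 was higher in MC than in HPSC by 6.60 ± 2.02 (edgeR adjusted p = 0.0473), in 5 of 6 blocks. That value lies close to the threshold of 0.05. The call held in 7 of the 18 fits with 1 library left out, with adjusted p up to 0.151 without the explant BRE-GFP negative MC library, and was 0.103 without the 2 libraries of fewest counts. MC differed from EC by 4.86 ± 1.75 (adjusted p = 0.217).

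Of the other tubule and duct genes, Lhx1 and Pax2 had the lowest means of the 10 genes in MC, while Pax8 had a mean of 7.48 CPM there. Pax8, a paired box factor of nephric duct and tubules (chr2:24420560-24475599, minus strand), held 3.39, 10.5 and 19.9 CPM in the fresh, explant and cyclopamine MC negative libraries and 0, 5.08 and 6.06 CPM in the positive ones. In EC it ranged from 0 to 19.0 CPM with a median of 1.42, and its highest value was again in the cyclopamine negative library. In HPSC it ranged from 0 to 2.42 CPM. MC differed from HPSC by 4.35 ± 1.89 (adjusted p = 0.162).

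Lhx1, a LIM homeobox gene of the nephric duct (chr11:84518284-84525535, minus strand), had 126 counts over the 18 libraries and reached 10 counts in 4 of them. Its highest level, 3.20 CPM, was in fresh BRE-GFP negative HPSC, and MC reached 2.10 and 1.84 CPM in the cyclopamine and explant negative libraries. All 4 libraries with 10 or more counts were BRE-GFP negative. MC differed from HPSC by -0.23 ± 2.06 (adjusted p = 0.966). Pax2, a paired box factor of the nephric duct and mesonephric tubules (chr19:44756045-44837871, plus strand), had 24 counts in all, 21 in MC, 3 in EC and 0 in HPSC. Its pooled level was at least 4.68-fold higher in MC than in HPSC, taking 3 counts as the floor of the pooled HPSC libraries. No library held more than 8 Pax2 counts.

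Over all genes, edgeR called 9.95% of the 16231 tested genes in the comparison of MC with HPSC, and 5.85% were called higher in MC. Of the 9 urogenital genes tested, 4 were called (Wt1, Nr5a1, Upk3b and Cdh16), all higher in MC, and 7 had an unadjusted p under 0.05, as did 25.1% of all tested genes. Their median log2 fold change was 4.04, against a median of 0.38 over all tested genes. Counts of called genes varied with the libraries and the tool. Leaving out 1 library gave 1 to 4 called genes, with 1 called without the explant BRE-GFP negative HPSC library and without the explant or fresh BRE-GFP negative MC library. The count was 2 without any 1 of 4 other HPSC libraries (fresh negative, explant positive, cyclopamine negative and cyclopamine positive), without either cyclopamine MC library and without the 2 libraries of fewest counts together. DESeq2 and limma-voom each called 8 of the 9, and called 22.1% and 17.7% of all genes.

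In the comparison of MC with EC, 2.54% of all genes and 0 of the 9 genes were called in edgeR. The unadjusted p was under 0.05 for 3 of them (Osr1, Upk3b and Cdh16), all with a positive log2 fold change, beside 11.4% of all genes. DESeq2 called these 3 genes and 7.67% of all genes, and limma-voom called 2 of them and 4.81% of all genes. Between HPSC and EC 0.32% of all genes and 0 of the 9 were called. Here 4 had an unadjusted p under 0.05 (Wt1, Gata4, Nr5a1 and Emx2), all with lower values in HPSC, beside 9.32% of all genes. DESeq2 called these 4 and 4.9% of all genes, and limma-voom 2 of them and 1.4% of all genes. The 3 population comparisons share libraries and are not independent of each other. Side by side, the log2 fold changes of MC over EC were 0.54 for Wt1, -0.72 for Gata4, -1.36 for Nr5a1 and -0.54 for Emx2, and 3.46 for Osr1, 4.75 for Upk3b and 4.86 for Cdh16. Pax8 and Lhx1 lay between these groups, at 1.90 ± 1.60 and 1.44 ± 2.01. The differences of Wt1, Gata4, Emx2 and Lhx1 between MC and EC were smaller than their SE. Those of Nr5a1, Pax8, Osr1, Upk3b and Cdh16 were more than their SE but did not pass the edgeR test.

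**Figure D2:**
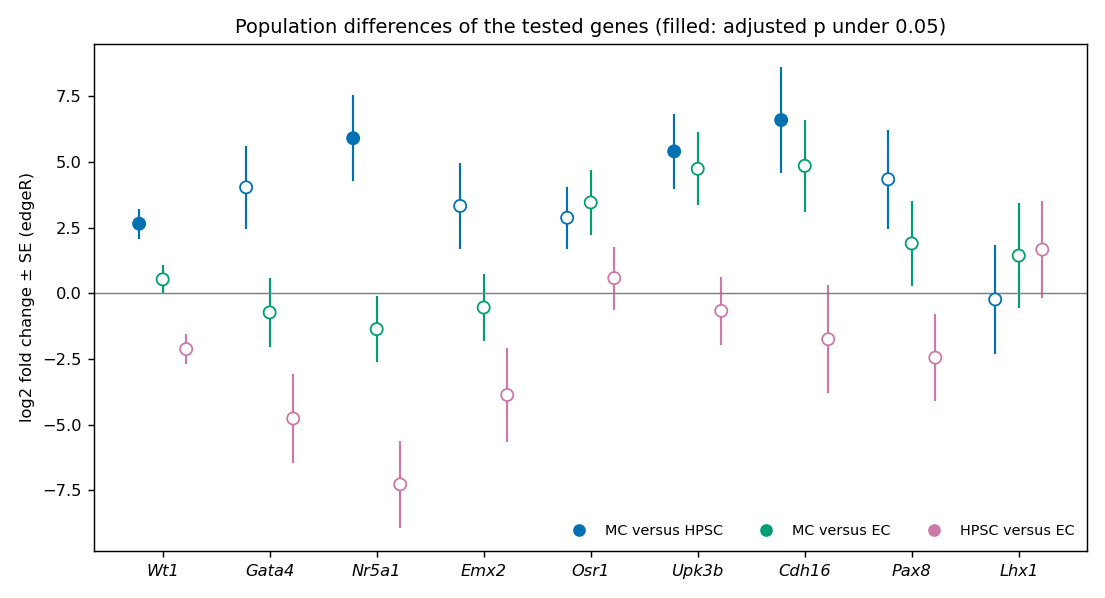
log2 fold changes of the 9 tested genes between populations with their SE, from edgeR; filled points have an adjusted p under 0.05 and zero marks equal levels. The 4 filled points are Wt1, Nr5a1, Upk3b and Cdh16 in the comparison of MC with HPSC. For MC against EC, Osr1, Upk3b and Cdh16 lie well above the line of equal levels, and Wt1, Gata4, Emx2 and Lhx1 lie within 1 SE of it.

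Markers of other cells moved with these differences. Between MC and HPSC all 6 mesenchymal markers were called higher in MC, as were 5 of 6 sympathetic neural crest markers, whose summed level ranged from 71.2 to 461 CPM in MC, from 0.479 to 7.11 CPM in HPSC and from 4.81 to 71.9 CPM in EC. All 6 endothelial, 6 hematopoietic and 5 macrophage markers were called lower in MC, as were 3 of 5 germ cell markers (Dppa3, Dazl and Ddx4), and 0 of 5 erythroid markers were called. The endothelial markers include Pecam1 and the hematopoietic markers include Kit. Both encode proteins on which MC and HPSC were sorted, so their direction was set by the gates. Between HPSC and EC 5 of 6 mesenchymal markers were called lower in HPSC. The part of these cell types in the differences of the urogenital genes was not tested.

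Other genes of the same tissues, in 4 lists, gave further counts for MC against HPSC. Among 20 gonad and adrenal primordium genes 9 were called, all higher in MC, with a median log2 fold change of 2.68. Sox9, a factor of testis differentiation, was at 215.5 ± 71.8 CPM in MC and 17.3 ± 12.2 CPM in HPSC (3.77 ± 0.675, edgeR adjusted p = 0.00182). Nr2f2, a nuclear receptor of mesenchyme and veins, differed by 2.29 ± 0.416 (adjusted p = 0.002), Rspo1, a Wnt agonist of the ovary, by 6.42 ± 1.61 (adjusted p = 0.0185), and Tcf21, a factor of gonadal and other visceral mesenchyme, by 3.41 ± 0.869 (adjusted p = 0.0198). Inha, the inhibin alpha subunit, differed by 4.43 ± 1.24 (adjusted p = 0.0321). Nr2f2, Sox9 and Tcf21, the 3 of these 5 genes with the highest levels, are also known from mesenchyme outside the gonad.

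Of 13 coelomic epithelium and mesothelium genes tested 6 were called, all higher in MC, with a median of 2.95. Aldh1a2, a retinoic acid synthesis enzyme of the coelomic lining, was at 137 ± 44.0 CPM in MC, 52.4 ± 49.9 CPM in EC and 23.5 ± 16.6 CPM in HPSC. It was higher in MC than in HPSC by 2.93 ± 0.455 (edgeR adjusted p = 0.000539), and it was the 1 gene of all 4 lists called between MC and EC, by 1.91 ± 0.448 (adjusted p = 0.0271). Krt7, a keratin of simple epithelia, was counted in all 6 MC libraries and in 1 HPSC library with 1 count (8.88 ± 1.78, adjusted p = 0.00437). Upk1b, a uroplakin like Upk3b, differed by 6.11 ± 1.56 (adjusted p = 0.0198), and Gpm6a, a membrane glycoprotein, by 6.88 ± 2.10 (adjusted p = 0.0467). Msln, mesothelin, differed by 6.03 ± 1.81 (adjusted p = 0.0472).

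Of 19 nephric duct epithelium genes 3 were called higher in MC than in HPSC, Rab25, Wnt9b and Sim1, with a median of 2.83 over the list, beside the 5.85% of all genes called higher. Rab25, an epithelial trafficking protein, was at 2.76 ± 4.02 CPM in MC, and Wnt9b, the duct signal that induces tubules, was at 0.9874 ± 0.8496 CPM in MC with 0 counts in HPSC. Sim1, a transcription factor, was at 3.03 ± 1.99 CPM in MC and 0.0355 ± 0.0576 CPM in HPSC (edgeR adjusted p = 0.0395). Of 18 mesonephric tubule and nephrogenic mesenchyme genes 3 were called higher, with a median of 3.14. Among them were Cdh6, a cadherin of early tubules (43.5 ± 10.04 CPM in MC, 2.76 ± 3.89 CPM in HPSC, adjusted p = 0.0199), and Sall1, a regulator of nephrogenic mesenchyme (32.3 ± 18.1 against 2.003 ± 3.695 CPM, adjusted p = 0.0349). No gene of the 4 lists was called lower in MC. Between MC and EC 0 genes of the duct, tubule and gonad lists were called; Gfra1, a GDNF receptor of the duct, was at 48.3 ± 20.4 CPM in MC and 9.04 ± 6.88 CPM in EC (adjusted p = 0.297), and Cdh6 at 9.03 ± 6.13 CPM in EC (adjusted p = 0.320). Sox9 was at 242 ± 185 CPM in EC, a mean above that of MC (adjusted p = 0.998). Between HPSC and EC 1 gene of the 4 lists was called, Sox9, with a log2 fold change of -3.76 ± 0.711 (edgeR adjusted p = 0.0348).

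**Figure D3:**
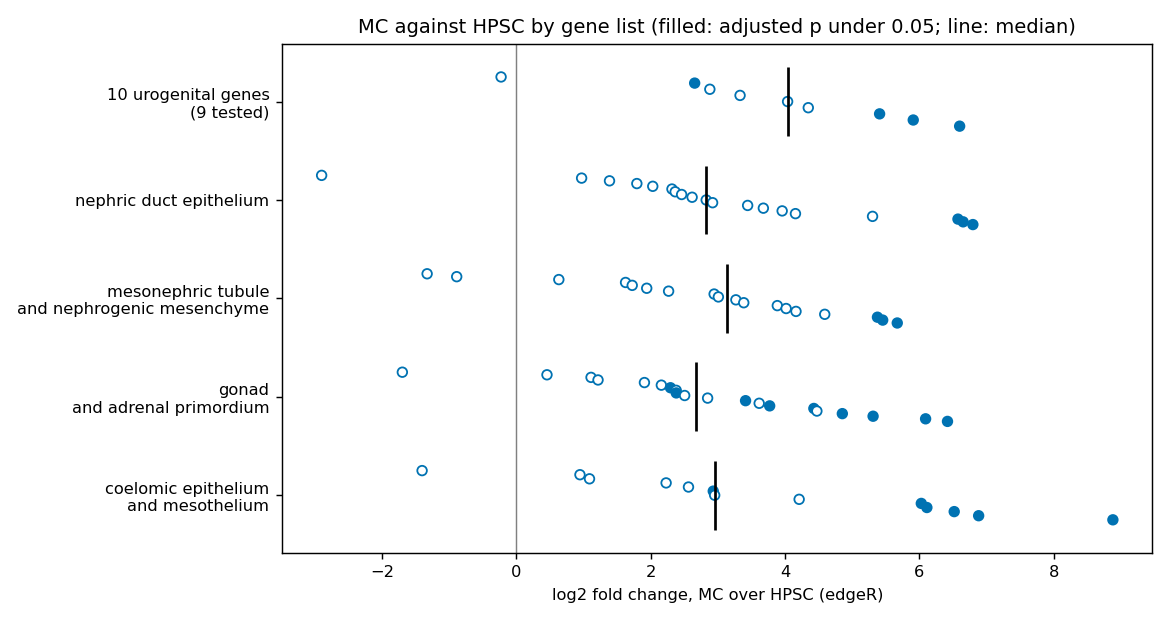
log2 fold changes of MC over HPSC for the tested genes of the 10 urogenital genes and of the 4 lists, from edgeR; filled points have an adjusted p under 0.05 and black lines mark the median of each list. The medians run from 2.68 to 4.04, and the filled points all lie above zero.

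BRE-GFP positive and negative cells were compared in 9 pairs, each from 1 population and culture. Over all pairs edgeR called 0.0554% of the genes and 0 of the 9 urogenital genes. Upk3b and Cdh16 had an unadjusted p under 0.05, with log2 fold changes of 2.95 ± 1.21 (adjusted p = 0.874) and 3.74 ± 1.47 (adjusted p = 0.852), and each was higher in the positive cells of 7 of 9 pairs. The 7 pairs of Cdh16 include fresh HPSC, with 1 count in each library, where only library size sets the sign. Both libraries had 0 counts of Cdh16 in the explant HPSC pair and 0 counts of Upk3b in the cyclopamine HPSC pair. An unadjusted p under 0.05 was found for 5.3% of all genes. DESeq2 called Cdh16 (adjusted p = 0.0237) and 2.29% of all genes, and limma-voom called 0 of the 9. Lhx1 was at -3.26 ± 1.52 (adjusted p = 0.961), with a higher level in the positive cells in 0 of 9 pairs. Both libraries had 0 counts in 3 of the pairs and 1 count each in the explant EC pair. Only BRE-GFP negative libraries reached the minimum of 0.796 CPM for Lhx1. It entered the test through the side where it was higher, so its direction is no support for a BRE-GFP effect.

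Within EC, a comparison added after the values were seen, edgeR called 0.0123% of all genes and 0 of the 9. Cdh16 was above 4 CPM in all 3 positive libraries and at 0 counts in all 3 negative ones, where 0 counts allow up to 0.328, 0.533 and 0.390 CPM in the fresh, explant and cyclopamine libraries. Pooled over the 3 libraries, the level was at least 39.8-fold higher in the positive cells, taking 3 counts as the floor of the pooled negative cells. Upk3b differed by 6.64 ± 1.89 (adjusted p = 0.905). It ranged from 0 to 0.219 CPM in the negative and from 0.678 to 12.8 CPM in the positive libraries. Both had an unadjusted p under 0.05 in edgeR, as did 4.29% of all genes, and limma-voom called 0 of the 9. DESeq2 called both (adjusted p = 0.0018 for Upk3b and 0.00289 for Cdh16) and 2.61% of all genes. Wt1, Gata4 and Nr5a1 gave -0.61 ± 0.588, 0.26 ± 1.61 and -0.24 ± 1.997 (adjusted p = 1 for each), with overlapping ranges.

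Marker sums differed between the EC fractions as well. The endothelial sum ranged from 387 to 1056 CPM in the negative and from 1312 to 6522 CPM in the positive libraries. The sympathetic neural crest sum ranged from 4.81 to 9.07 CPM in the negative libraries, with 3 of 6 markers at 0 counts throughout, and from 15.8 to 71.9 CPM in the positive ones. The germ cell sum ranged from 83.3 to 222 CPM in the negative and from 3.40 to 31.5 CPM in the positive libraries. The macrophage sum ranged from 771 to 2957 CPM in the negative and from 461 to 552 CPM in the positive libraries. The mesenchymal sum overlapped, from 739 to 3789 and from 1149 to 5175 CPM. Of the lists, 3 of 13 coelomic genes (Krt7, Upk1b and Gpm6a), 1 of 19 duct genes (Krt19), 1 of 18 tubule genes (Podxl) and 0 of 20 gonad genes had an unadjusted p under 0.05, all 5 with higher values in positive EC, and 0 genes of the 4 lists were called. These 5 are named after their values were seen. The part of admixed cells in the Cdh16 and Upk3b values was not tested.

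Within HPSC, a comparison likewise added afterwards, 0.037% of all genes and 0 of the 9 were called in edgeR. Wt1 was at 25.4, 34.6 and 25.9 CPM in the positive and at 8.43, 4.13 and 10.6 CPM in the negative libraries (1.98 ± 0.618, adjusted p = 0.416). Gata4 gave 7.33 ± 2.14 (adjusted p = 0.385), and its level in positive HPSC came from the fresh and explant libraries. These 2 of the 9 had an unadjusted p under 0.05, as did 7.6% of all genes. DESeq2 called both, with adjusted p of 0.0105 for Wt1 and 0.00854 for Gata4, and 5.72% of all genes, and limma-voom called 0 of the 9. Nr5a1 had 28 counts in 1 positive library and 0 counts in every other HPSC library. The pooled bound of at least 6.95-fold in the positive cells rests on that library. In edgeR Nr5a1 differed by 5.97 ± 3.425 (unadjusted p = 0.108, adjusted p = 0.720), with 1 of 3 pairs higher. Of the lists, 2 of 13 coelomic and 1 of 20 gonad genes had an unadjusted edgeR p under 0.05, all higher in positive HPSC. Of 18 tubule genes 3 did, of which 1 was higher, and of 19 duct genes 1 did, which was lower. In edgeR 0 genes of the 4 lists were called. The endothelial sum ranged from 297 to 1342 CPM in the negative and from 2781 to 6662 CPM in the positive HPSC libraries, and the germ cell sum was lower in the positive ones as given above. The erythroid sum ranged from 8520 to 13360 CPM in the negative and from 1700 to 7955 CPM in the positive ones. The part of these cells in the Wt1 and Gata4 values was not tested.

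Within MC 0% of all genes and 0 of the 9 genes were called by edgeR, and 0 of the 9 had an unadjusted p under 0.05, against 0.431% of all genes. That share lies far below the rate of 0.05 that chance alone would give, so the test could hardly find a difference in MC. Its spread was estimated over all 18 libraries, and 0 of 9 does not show equal levels. DESeq2, limma-voom and a fit of the MC libraries alone also called 0 of the 9. Wt1 gave 0.29 ± 0.589, Gata4 0.40 ± 1.27, Osr1 0.27 ± 1.42, Upk3b 0.34 ± 1.36 and Cdh16 1.01 ± 1.80 on the log2 scale (adjusted p = 1 for each). The largest difference was that of Lhx1, at -5.59 ± 2.79 (unadjusted p = 0.0717, adjusted p = 1), from 63 counts in the negative and 1 count in the positive libraries. Lhx1 passed the minimum CPM only through BRE-GFP negative libraries, so this direction was favoured in advance. Pax8 gave -2.47 ± 2.41, with a lower level in the positive cells of all 3 MC pairs, Nr5a1 -1.19 ± 2.17 and Emx2 -0.32 ± 2.06 (adjusted p = 1 for each). The mesenchymal sum ranged from 1914 to 3963 CPM in the negative and from 5138 to 5678 CPM in the positive MC libraries. The BRE-GFP effect itself was compared between populations. The effect in MC was below that in EC by 6.30 ± 2.27 for Upk3b (unadjusted p = 0.016) and 7.93 ± 3.07 for Cdh16 (unadjusted p = 0.0263) in edgeR, and the adjusted p was 1 for both, with 0% of all genes called and 1.97% at an unadjusted p under 0.05. Against HPSC, Gata4 had an effect in MC that was lower by 6.92 ± 2.39 (unadjusted p = 0.0121, adjusted p = 0.972), where 0% of all genes were called and 4.04% had an unadjusted p under 0.05. DESeq2 and limma-voom called 0 of the 9 genes in these comparisons of effects.

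**Figure D4:**
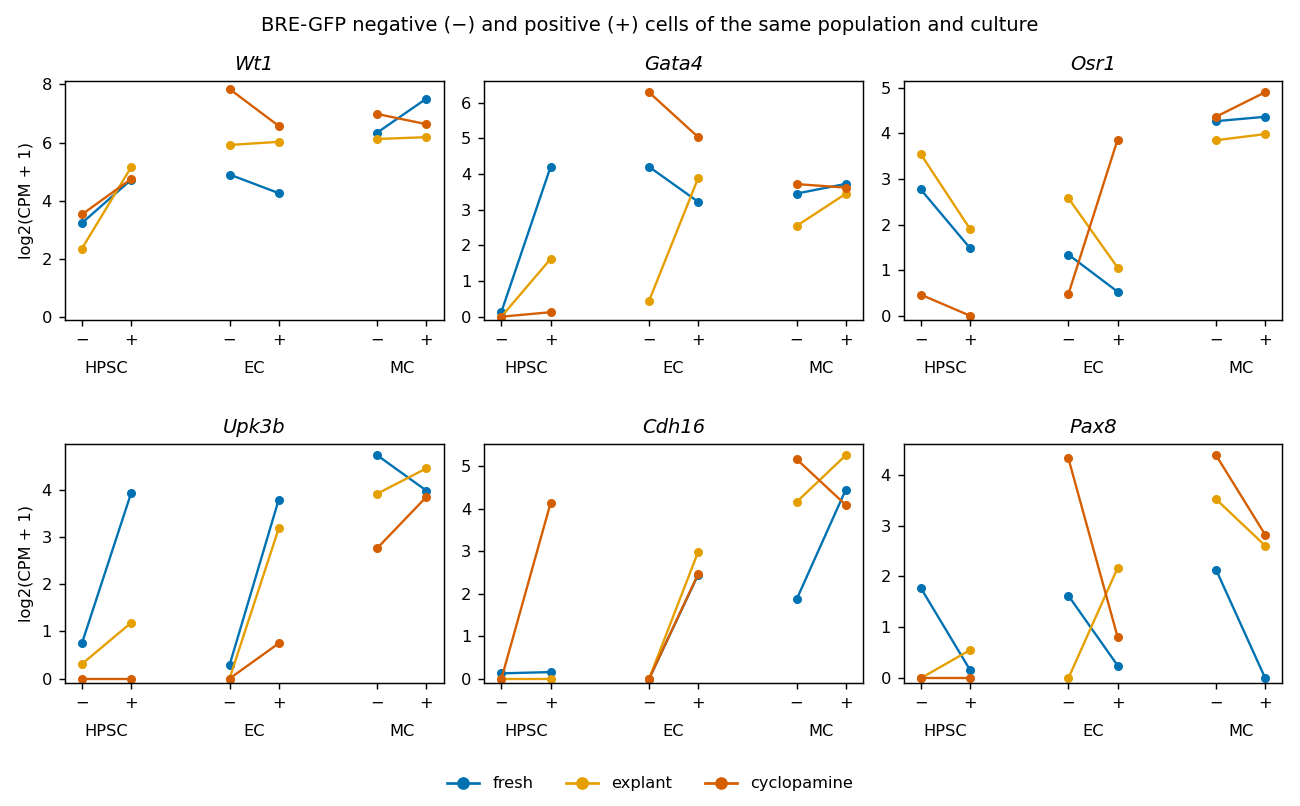
Levels of 6 genes in BRE-GFP negative and positive cells as log2(CPM + 1); each line joins the libraries of 1 population and culture, and the scales differ between panels. Cdh16 leaves 0 in all 3 EC pairs and Wt1 is higher in the positive cells of all 3 HPSC pairs, while the MC libraries lie between 4.83 and 12.2 CPM for Gata4 and between 13.4 and 28.9 CPM for Osr1; 0 of the 9 tested genes passed the edgeR test.

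None of the 9 genes passed the edgeR threshold for culture, and 0 of them had an unadjusted p under 0.05. Explants were compared with fresh AGM in 6 blocks, where 0.136% of all genes were called and 8.58% had an unadjusted p under 0.05. Cyclopamine explants were compared with untreated explants, where 0% were called and 8.13% had an unadjusted p under 0.05. Beside such shares, 0 of 9 does not set these genes apart. Cyclopamine over explant, Wt1 gave 0.84 ± 0.475 (adjusted p = 0.749), with 5 of 6 blocks higher, and Upk3b gave -1.92 ± 1.13 (adjusted p = 0.771), with 0 of 6 blocks higher. Both libraries of the BRE-GFP negative EC block had 0 Upk3b counts, and the BRE-GFP negative HPSC block held 0 counts with cyclopamine and 3 without. Explant over fresh, Gata4 gave -1.49 ± 1.13 (adjusted p = 0.810) and Upk3b gave -1.70 ± 1.05 (adjusted p = 0.736), each higher in 1 of 6 blocks. Within MC alone, 0% of all genes and 0 of the 9 were called in either culture comparison. There 2.48% of all genes had an unadjusted p under 0.05 for explant against fresh, and 0.659% for cyclopamine against explant. Mean Wt1 in MC was 130 ± 71.2 CPM in fresh, 70.1 ± 2.19 CPM in explant and 112 ± 19.2 CPM in cyclopamine libraries (SD, n = 2 each). Mean Cdh16 was 11.7 ± 12.8, 26.9 ± 14.3 and 25.4 ± 13.3 CPM in the same order. DESeq2 and limma-voom called 0 of the 9 in these 4 comparisons, where they called up to 3% and up to 1.02% of all genes. In edgeR 0 genes of the 4 lists were called.

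The genes varied together to different degrees over the 18 libraries, which share populations and differ in depth. On log2(CPM + 1) values Pearson r was 0.724 between Wt1 and Gata4, 0.709 between Gata4 and Nr5a1 and 0.600 between Upk3b and Cdh16. It was 0.160 between Nr5a1 and Upk3b and -0.360 between Lhx1 and Gata4. The tested genes of most similar pattern were Kif1a for Wt1 (r = 0.916), Zfp605 for Gata4 (0.915), Ankrd35 for Nr5a1 (0.882), Rnft2 for Emx2 (0.856), Eya4 for Osr1 (0.926), Col19a1 for Upk3b (0.915), Chodl for Cdh16 (0.920) and Hspa1l for Pax8 (0.896). Lhx9, a LIM homeobox gene of the gonadal ridge, ranked 3 among the genes nearest to Nr5a1 (0.869), behind Ankrd35 and Tulp2 (0.873). It was picked for print because it is on the gonad and adrenal primordium list. The highest Lhx9 level, 63.8 CPM, was in the cyclopamine BRE-GFP negative EC library in which Wt1, Gata4 and Nr5a1 also peaked. That library is part of the correlation, so the shared peak adds nothing to it. Eya4, a transcriptional coactivator, ranged from 8.001 to 21.8 CPM in MC and from 0 to 3.58 CPM in HPSC.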

How the data were processed

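Per the labels' protocols, RNA was prepared with a mirVana kit and turned into sequencing libraries by a SMARTER method. The authors deposited whole-number read counts per gene symbol, unnormalized, for 18 libraries, made with TopHat, Cufflinks and HTSeq on mm10 according to the submitters' processing notes, which name no versions. Gene annotation and strand use were not given in the sources used here. Lines that name no gene were left out (reads at no feature were 19.5 to 49.4%).

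The test was edgeR's quasi-likelihood F test (version 4.0.16, R 4.3.3) after TMM scaling, and a gene was called at an adjusted p under 0.05 (Benjamini-Hochberg over 16231 of 21881 symbols, those with 0.796 CPM, or 10 counts at the median library, in at least 3 libraries). All 18 libraries entered each fit. This test returns no SE, so each SE of an edgeR log2 fold change is its absolute value divided by the square root of F. Populations and cultures were compared within 6 blocks, BRE-GFP fractions within 9 pairs, and effects within 1 population in models with those terms. With 1 library per combination there are no repeat libraries, and p-values measure spread between blocks (10 residual degrees of freedom, 8 for BRE-GFP, 6 within populations; biological coefficient of variation 0.884 to 0.922). DESeq2 1.42.0, limma-voom 3.58.1, RLE scaling, other minima and leaving out libraries were alternatives. For lower bounds, a pooled group at 0 was set to 3 counts.

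The genes, the lists and the rule for named genes (the 10 genes throughout, per list up to 5 called genes of lowest p, and per gene the 3 nearest by Pearson r, of which the nearest is printed) were chosen with earlier results of these data known. Lhx9 and Tulp2 are printed besides the nearest genes. BRE-GFP effects within EC and HPSC, the contrast of the effects in MC and HPSC, and the leaving out of 2 libraries, were added after the data were seen. Of the list genes this rule names and of the marker genes, 1 each is not reported here. Muc16 had no row, and 3 symbols were matched by an older name. GENCODE M21 (GRCm38, the assembly of mm10) gave gene coordinates and exon lengths.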

Additional observations from a re-analysis of the deposited data

Results flagged for a closer look

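In 26 groups of 6 libraries (a gene within a population), 10 had a highest or lowest library whose gap to its nearest neighbour, over the range of the group, exceeded Dixon's 95% critical value of 0.625. Chance gives about 1 in 20 such groups where values follow a normal distribution. CPM values need not follow one, and several of these groups hold many values at 0. The rate by chance for these data is therefore not known.

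In EC, Wt1 at 227 CPM and Pax8 at 19.0 CPM stood apart in the cyclopamine BRE-GFP negative library, where the next values were 93.9 and 3.50 CPM. Osr1 stood apart at 13.6 CPM in the cyclopamine BRE-GFP positive EC library, with the next value at 4.98 CPM.

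In HPSC, 6 genes stood apart, in 5 different libraries. Gata4 at 17.4 CPM and Upk3b at 14.2 CPM did so in the fresh BRE-GFP positive library, and Pax8 at 2.42 CPM in the fresh negative library. Nr5a1 at 1.87 CPM in the explant positive library was above 5 libraries at 0. Emx2 at 8.30 CPM stood apart in the cyclopamine negative library, the shallowest of all, and Cdh16 at 16.5 CPM in the cyclopamine positive library.

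In MC, Gata4 at 4.83 CPM in the explant BRE-GFP negative library lay below the other 5 libraries, of which the lowest was at 9.88 CPM.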

How the results depend on the processing

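Among 117 log2 fold changes (9 genes in 13 comparisons), 55 exceeded their own SE and 0 of these changed sign under any alternative, while 42 of the 62 smaller ones did in at least 1. The number of called genes for MC against HPSC was 4 in edgeR, 8 with DESeq2, 8 with limma-voom, 2 without the 2 libraries of fewest counts and 1 to 4 with 1 library left out. For MC against EC it was 0 in edgeR, 3 with DESeq2, 2 with limma-voom, 1 without those 2 libraries and 0 in every fit with 1 library left out. For HPSC against EC it was 0, with 4 by DESeq2 and 2 by limma-voom, and for BRE-GFP over all pairs 0, with 1 by DESeq2. Within EC and within HPSC DESeq2 called 2 each where edgeR called 0. All other counts of called genes, with RLE scaling, without a minimum CPM, with the minimum in 6 libraries and in fits of MC alone, lay within 1.5 times that of the edgeR fit. Cdh16 in MC against HPSC lost its call with the minimum in 6 libraries. The cause of these differences between tools was not tested. Without a minimum, Pax2 gave 4.44 for MC against HPSC (edgeR adjusted p = 0.148). Depth limits Pax2 and Lhx1 most among the genes, and the cyclopamine BRE-GFP negative HPSC library most among the libraries. There 0 counts allow up to 1.13 CPM, against at most 0.359 CPM in any other HPSC library. The fresh BRE-GFP positive MC library allows up to 0.599 CPM and the explant BRE-GFP negative EC library up to 0.533 CPM.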
